A study of Mus musculus with 9 samples.

Results

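The set of 46 genes described here joined 24 genes of DNA replication and 22 genes of mitosis. A gene was measured where a probe set of the array carried its symbol and no other, and the brightest such probe set over all arrays stood for it. Of the 46 genes, 44 were measured (23 of replication and 21 of mitosis) among 22180 genes with such a probe set. The exceptions were Rfc4, a clamp loader subunit whose probe set also carries the symbol of Eif4a2, and Ccnb1, a mitotic cyclin for which no single-symbol probe set was listed, and neither was analysed here. All 44 measured genes lay at or above the median of all values in the table on at least 3 arrays, as did 12658 of the 22180 genes. They were compared as a whole, by class and by role in every pair of groups.

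The arrays held RNA of sorted mouse leukemia cells from spleen. The cells carried the MLL-AF9 fusion, a driver of acute myeloid leukemia, together with Klf4, c-Myc, Oct4 and Sox2 (OSKM) under a tetO promoter, which doxycycline (Dox) switches on. Recipient mice drank Dox water for 48 h or 72 h, whereas control mice received no Dox. Each group had 3 arrays. Control cells carried the same MLL-AF9 and OSKM cassettes, so the drug and the factors it induces cannot be told apart. Replicates are labelled biological, but nothing ties each one to a separate mouse, and the p-values therefore measure the spread between these samples alone. In bulk RNA, a difference in which cells were present and a change within cells cannot be told apart.

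Of the OSKM factors, Klf4 was higher on every Dox array than on every control array. Its probe set gave log2 values of 4.73, 5.13 and 4.63 on the control arrays, 7.92, 7.88 and 7.74 after 48 h and 6.80, 6.89 and 6.71 after 72 h. The other 3 factors did not separate in this way. Myc, the factor with the closest ties to proliferation, gave 8.11, 8.22 and 8.53 on the control arrays, 8.29, 8.12 and 8.04 after 48 h and 8.12, 8.29 and 8.23 after 72 h, and overlapped between the groups. Which part of each transcript the probes read was not checked, so RNA of the cassette and of the cells' own genes was not told apart. The myeloid identity of the cells showed in 12 of 12 myeloid markers measured, whose mean log2 value was between 9.54 and 9.87 on every array. Single markers of this list moved within that mean. Of the 12, 4 rose and 2 fell at 48 h and 2 rose at 72 h (limma, adjusted p under 0.05), with differences between -1.22 and 1.04 at 48 h, alongside the cell cycle genes, and their part in the results was not tested. Markers of T cells (8 of 10 measured) averaged from 4.23 to 4.68 in controls, from 4.22 to 4.33 after 48 h and from 4.31 to 5.33 after 72 h, with the top value on Dox 72 h array 3. B cell markers (9 of 10 measured) averaged from 4.17 to 4.46 in controls, from 4.33 to 4.40 after 48 h and from 4.34 to 5.12 after 72 h. NK cell markers (8 of 8) averaged from 3.29 to 3.55 in controls, from 3.32 to 3.40 after 48 h and from 3.55 to 4.05 after 72 h, again with the same array on top. Many of these markers were dim. Only 2 of the 8 NK cell and 4 of the 9 B cell markers met the brightness criterion above, against 7 of the 8 T cell markers. Red pulp macrophage markers (10 of 10) were highest on that array (6.20) and on control array 3 (6.14), against 5.17 to 5.85 elsewhere. Of 12 erythroid precursor markers only 5 were measured, and their mean was 5.12 on Dox 72 h array 3 and from 3.78 to 4.51 on the others. Dox 72 h array 3 thus stood apart by lymphoid and erythroid markers. Its value is pointed out for some genes below, and other differences at 72 h can lean on it too. Control array 3 had the highest mean of the controls for T cell (4.68), B cell (4.46), NK cell (3.55) and erythroid markers (4.51). Differences from control at either time can lean on that array.

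Before a cell divides, it licenses its replication origins by loading the ring-shaped MCM helicase with the help of Cdc6 and Cdt1, and then fires them with Cdc45 and the GINS complex. Genes of this machinery are switched on together at the entry into S phase by E2F transcription factors. Mitosis genes come later. They are transcribed in G2 phase, when promoter elements called CHR (cell cycle genes homology region) and CCAAT boxes are bound by MuvB complexes and by NF-Y. Their products drive chromosome condensation, spindle assembly, the checkpoint and cytokinesis. Rapidly dividing leukemia cells express both programs.

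The promoters of both classes were searched for these elements, which are independent of the expression values. The windows ran from 250 bases before to 50 bases after the gene start in RefSeq (GRCm38.p6), and 38 of the 46 genes had one (20 of replication, Rfc4 among them, and 18 of mitosis, Ccnb1 among them). Mcm4, Gins1, Gins2, Pole, Ccna2, Aurkb, Kif20a and Tpx2 were not in the table. The E2F-like motifs searched were TTTGGCGC, TTTCGCGC and TTCCCGCC, the last also found as its reverse complement GGCGGGAA. The CHR motifs were TTTGAA and TTCGAA, the second of which reads the same on both strands, and the CCAAT box was CCAAT. All were searched on both strands, and none is contained in another. Among replication genes, 11 of 20 (55%) held an E2F-like motif, against 1 of 18 mitosis genes (5.56%) and 917 of 27025 genes of the table (3.39%). CHR motifs were present in 14 of 18 mitosis genes (77.8%), in 4 of 20 replication genes (20%) and in 5854 of the 27025 genes (21.7%). The CCAAT box was found in 16 of 18 mitosis genes (88.9%), in 13 of 20 replication genes (65%) and in 11096 of the 27025 genes (41.1%). Cdk1 was the only mitosis gene with an E2F-like motif. A match describes letters in a window and is not a shown binding site.

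**Figure D1:**
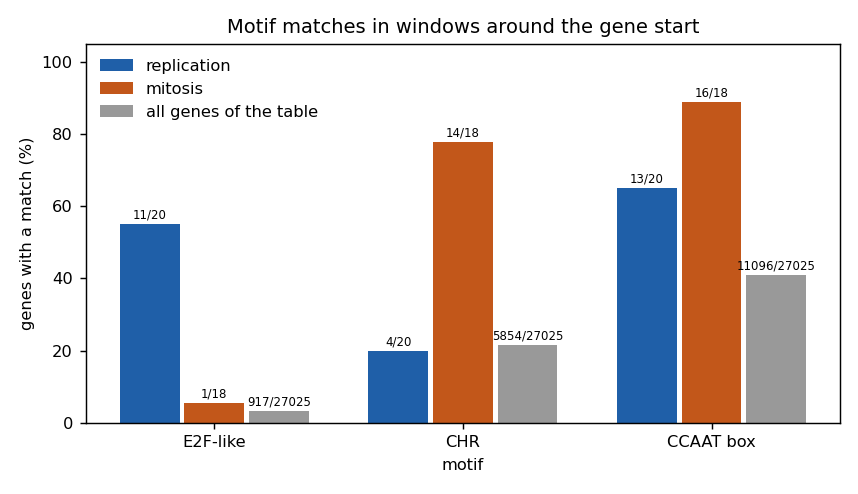
Share of genes (%) whose window around the gene start held each motif, for replication genes (blue), mitosis genes (orange) and all genes of the table (grey), with counts above the bars. The E2F-like bar is highest for replication genes (11 of 20) and the CHR bar for mitosis genes (14 of 18).

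Windows are shown for 4 genes, the 2 of each class with the smallest p-values over the 3 groups among those with a single window that held the motif of their class, to let the elements be seen. Capitals mark the motif matches, and each window reads 5′ to 3′ along the gene. They lie at chr8:122567765-122568064, plus strand (Cdt1), chr7:44548766-44549065, minus strand (Pold1), chr7:122159185-122159484, plus strand (Plk1) and chr1:189688037-189688336, minus strand (Cenpf), all GRCm38.p6.
Cdt1: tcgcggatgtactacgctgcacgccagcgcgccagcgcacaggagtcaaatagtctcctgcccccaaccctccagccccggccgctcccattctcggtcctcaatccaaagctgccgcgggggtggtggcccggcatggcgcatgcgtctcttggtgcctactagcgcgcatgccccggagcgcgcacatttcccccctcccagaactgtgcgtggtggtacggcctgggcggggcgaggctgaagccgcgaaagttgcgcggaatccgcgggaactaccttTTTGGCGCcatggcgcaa
Pold1: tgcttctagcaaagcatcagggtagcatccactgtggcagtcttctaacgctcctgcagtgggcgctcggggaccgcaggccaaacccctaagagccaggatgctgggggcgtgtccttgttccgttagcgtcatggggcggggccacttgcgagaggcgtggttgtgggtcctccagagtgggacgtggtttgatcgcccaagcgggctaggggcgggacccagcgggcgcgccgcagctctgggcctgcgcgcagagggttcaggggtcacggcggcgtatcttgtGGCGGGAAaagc
Plk1: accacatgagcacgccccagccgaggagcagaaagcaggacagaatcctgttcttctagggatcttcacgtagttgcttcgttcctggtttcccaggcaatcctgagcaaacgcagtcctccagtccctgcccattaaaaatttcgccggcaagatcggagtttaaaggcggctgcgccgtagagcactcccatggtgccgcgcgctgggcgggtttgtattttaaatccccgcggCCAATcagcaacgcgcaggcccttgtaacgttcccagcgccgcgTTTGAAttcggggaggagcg
Cenpf: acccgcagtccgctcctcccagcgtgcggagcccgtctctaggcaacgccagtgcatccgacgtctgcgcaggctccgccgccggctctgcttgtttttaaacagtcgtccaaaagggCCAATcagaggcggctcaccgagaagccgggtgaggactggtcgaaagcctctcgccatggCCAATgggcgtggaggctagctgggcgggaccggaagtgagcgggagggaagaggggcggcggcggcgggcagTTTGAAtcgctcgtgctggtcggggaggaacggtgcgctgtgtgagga
Both replication windows carry their E2F-like motif downstream of the annotated start. In the Plk1 window a CCAAT box stands just before the start and the CHR just after it, and the Cenpf window has 2 CCAAT boxes upstream of its CHR.

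None of the 44 genes changed by the test applied across the array in any comparison. With limma and Benjamini-Hochberg adjustment over all 41345 probe sets, 0 of 44 passed an adjusted p of 0.05 at 48 h against control, where 2.5% of all 22180 genes passed, and 0 of 44 passed at 72 h against control, where 3.06% did. Dox 72 h against Dox 48 h gave 0 of 44, against a background of 0.293%, and the moderated F test over the 3 groups gave 0 of 44, against 3.03%. Before adjustment, a p under 0.05 was reached by 7 genes at 48 h (all lower than control), by 12 genes at 72 h (1 higher and 11 lower), by 7 genes between the Dox groups (5 higher and 2 lower at 72 h) and by 6 genes in the F test. These were 15.9%, 27.3% and 15.9% of the 44 genes in the 3 comparisons, against 19.7%, 26.4% and 18.7% of the 12658 genes that passed the same brightness criterion (27.4% in the F test), so that the set as a whole lay near or below this background. By class, 9 of 21 mitosis genes (42.9%, all lower) and 3 of 23 replication genes (13%) were under this p at 72 h. The smallest adjusted p of the set was 0.0807, for Plk1 at 72 h. These counts do not show that the genes held their level. The 95% interval of the difference stayed within 1.5-fold for 42 of 44 genes at 48 h and for 42 of 44 at 72 h, and within 1.2-fold for 13 of 44 at 48 h and 19 of 44 at 72 h.

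Small differences ran mostly one way. At 48 h, 40 of 44 genes lay below control on average (22 of 23 of replication and 18 of 21 of mitosis, or 21 and 16 on centring each array), compared with 11825 of all 22180 genes. The median log2 difference was -0.13 for replication genes, -0.11 for mitosis genes and -0.01 for all genes. All 3 Dox arrays lay below all 3 controls for 10 of 23 replication genes (43.5%) and 8 of 21 mitosis genes (38.1%), whereas 12.5% of the 12658 brighter genes did so. No gene of the set had all 3 Dox arrays above all controls, which 14.9% of the brighter genes had. Because genes of a class share arrays and are transcribed together, these counts do not stand for independent observations.

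At 72 h the medians of the classes lay further apart. Mitosis genes had a median difference from control of -0.16, with 17 of 21 below control, which became -0.06 and 11 of 21 when each array was centred on its median. Replication genes had a median of -0.03, with 14 of 23 below, which became 0.06 and 7 of 23 on centring. Centring added 0.09 to every difference at 72 h and 0.04 at 48 h, and took the median of all genes at 72 h to 0.10, so that the position of the classes relative to other genes and to each other did not depend on it. All 3 Dox 72 h arrays lay below all controls for 10 of 21 mitosis genes (47.6%) and for 1 of 23 replication genes (4.35%), with a background of 15.6%. The opposite order held for 1 replication gene, Cdt1, and for no mitosis gene, with a background of 16.7%. Directly between the Dox groups, 6 of 23 replication genes (26.1%) were higher on every 72 h array than on every 48 h array (background 10.9%), namely Mcm6, Cdt1, Gins2, Rfc5, Pold1 and Tk1. Separation downward on all arrays was found for 3 of 21 mitosis genes (14.3%), Plk1, Kif20a and Cenpe, which is close to the background of 12.8%. The median of the replication genes minus that of the mitosis genes was -0.01 at 48 h against control, 0.13 at 72 h against control and 0.13 at 72 h against 48 h. Both comparisons with control use the same control arrays.

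Array by array, the gap between the classes did not reach all of the 72 h samples. Relative to the mean of the controls, the mean of the replication genes was 0.003, 0.07 and -0.08 on the control arrays, -0.08, -0.19 and -0.13 after 48 h and -0.09, 0.005 and 0.001 after 72 h. That of the mitosis genes was -0.01, 0.07 and -0.06 on the control arrays, -0.14, -0.12 and -0.04 after 48 h and -0.09, -0.14 and -0.19 after 72 h. Replication minus mitosis was therefore 0.15 on Dox 72 h array 2 and 0.19 on array 3 but -0.01 on array 1, which lay among the controls (0.01, 0.01 and -0.02), with 0.06, -0.07 and -0.08 after 48 h. The group averages of this difference were 0 ± 0.02 in controls, -0.03 ± 0.08 at 48 h and 0.11 ± 0.10 at 72 h (SD, n = 3 each). With 1 of 3 arrays at the control level, the gap at 72 h did not exceed the spread between replicates in every sample.

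**Figure D2:**
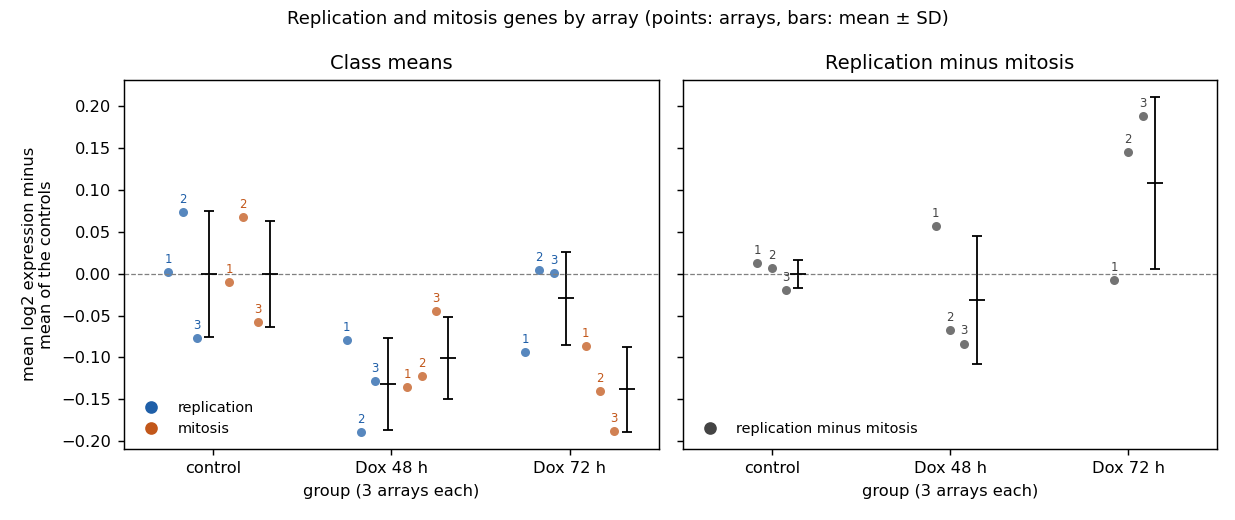
Mean log2 expression of the 23 replication genes (blue) and 21 mitosis genes (orange) on each array, relative to the mean of the 3 controls (left), and replication minus mitosis (right); points are arrays with their replicate number, bars are mean ± SD. The difference is 0.15 and 0.19 on Dox 72 h arrays 2 and 3 and at the control level on array 1.

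Other properties of the genes and arrays also differed at 72 h. Over the brighter genes, the median log2 difference at 72 h decreased with genomic span (RefSeq), being 0.05, 0.04, 0.02, -0.02 and -0.06 in 5 bins of equal size taken from short to long genes, and -0.02, -0.01, -0.01, -0.004 and 0.01 at 48 h. The median span was 16.1 kb for the replication genes and 29.5 kb for the mitosis genes. On Dox 72 h array 3, the array with the highest T and B cell marker levels, the median difference from the control mean was 0.08 in the bin of shortest genes and -0.09 in the bin of longest genes. These medians were 0.02 and -0.03 on Dox 72 h array 1 and 0.04 and -0.03 on array 2. T cell markers averaged 4.46 on array 1 and 4.31 on array 2, and B cell markers 4.42 and 4.34. The gap was -0.01 on array 1 and 0.15 on array 2. With the trend on span taken out, the replication minus mitosis median was 0.12 at 72 h against control, and without array 3 it was 0.10. The part of lymphoid, erythroid or macrophage RNA in the gap was not tested.

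Among the replication genes, the licensing and helicase group was described by Cdt1, Mcm7 and Gins2. Cdt1 (probe set 17506418), the licensing factor that loads MCM rings and is destroyed once S phase starts, gave log2 values of 8.84, 8.89 and 8.76 on the control arrays, 8.74, 8.75 and 8.67 after 48 h and 8.96, 9.01 and 9.07 after 72 h. Every 48 h array was below, and every 72 h array above, every control. The difference from control was 0.19 at 72 h (95% interval 0.03 to 0.34, adjusted p = 0.204, limma) and -0.11 at 48 h (-0.26 to 0.04, adjusted p = 0.672). Mcm7, one of the 6 subunits of the helicase ring, gave 9.96, 10.04 and 9.83 on the control arrays, 9.71, 9.77 and 9.74 after 48 h and 9.75, 9.84 and 9.83 after 72 h. Its 48 h arrays all lay below the controls, whereas the 72 h arrays overlapped them, and the adjusted p was 0.341 at 48 h. Gins2, a subunit of the GINS complex that activates the ring, gave 7.62, 7.67 and 7.59 on the control arrays, 7.61, 7.39 and 7.49 after 48 h and 7.62, 7.76 and 8.12 after 72 h. The 72 h values were all above the 48 h values, but the highest of them, on array 3, was far from the others of its group. The difference between the Dox groups was 0.34 (0.04 to 0.63), the largest upward difference of the set, with an adjusted p of 0.35.

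The 12 genes of this group were all below control on average at 48 h (11 of 12 on centring), and all 12 were higher at 72 h than at 48 h, by 0.02 to 0.34. Of those not yet described, the differences from control at 72 h were -0.01 for Mcm2, -0.05 for Mcm3, -0.06 for Mcm4, -0.04 for Mcm5 and 0.12 for Mcm6, the other subunits of the ring. Mcm10, which helps the helicase to start unwinding, differed by 0.01, Cdc6, the loader that works with Cdt1, by -0.01, Cdc45, which joins the active helicase, by -0.03, and Gins1, the partner of Gins2, by 0.13. Each of these intervals included 0.

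The clamp, clamp loader and polymerase genes were more varied. Pole, the catalytic subunit of the leading-strand polymerase, gave 8.29, 8.46 and 8.16 on the control arrays, 8.19, 8.19 and 8.17 after 48 h and 7.999, 8.18 and 7.93 after 72 h. One of its 72 h arrays, array 2, lay within the control range, and the difference was -0.27 at 72 h (-0.49 to -0.04, adjusted p = 0.215, limma), or -0.14 as the mean of its 2 probe sets. Pold1, the catalytic subunit of the polymerase that copies the lagging strand, showed another course. It gave 8.78, 8.76 and 8.75 on the control arrays, 8.72, 8.58 and 8.61 after 48 h and 8.75, 8.81 and 8.83 after 72 h, so that all 48 h arrays were below all others. The Dox groups differed by 0.16 (0.02 to 0.31, adjusted p = 0.361). Differences from control at 72 h were -0.06 for Pcna, the sliding clamp, 0.18 for Rfc3 and 0.04 for Rfc5, which load the clamp, and -0.17 for Pola1 and 0.08 for Prim1, which make the primers. Rfc5 and Prim1 were higher at 72 h than at 48 h by 0.22 and 0.26, both with an unadjusted p under 0.05 and neither past the adjusted threshold. Prim1 gave 8.89, 8.99 and 9.21 after 72 h, with array 3 the highest. Over the 7 genes, 6 were below control at 48 h and 3 at 72 h.

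On the brightest probe set of each gene, the 4 nucleotide synthesis genes had the lowest median of any role at both times. Their median differences from control were -0.24 at 48 h and -0.20 at 72 h. Rrm2, the regulatory subunit of ribonucleotide reductase, which makes the deoxynucleotides used in replication, gave 8.83, 8.91 and 8.68 on the control arrays, 8.47, 8.48 and 8.61 after 48 h and 8.52, 8.56 and 8.36 after 72 h. All 6 Dox arrays were below all controls. The difference was -0.32 at 72 h (-0.53 to -0.12, adjusted p = 0.108, limma) and -0.28 at 48 h (-0.49 to -0.08, adjusted p = 0.248). With its second probe set averaged in, the difference of Rrm2 was -0.19 at 72 h and -0.17 at 48 h. The 4 genes then no longer had the lowest median of any role at 72 h. Tk1, the thymidine kinase of the salvage route, gave 9.07, 9.15 and 8.96 on the control arrays, 8.59, 8.65 and 8.66 after 48 h and 8.70, 8.67 and 9.06 after 72 h. On Dox 72 h array 3 it stood within the control range, far from the other 72 h arrays, while the 48 h arrays lay close together below every control. Its difference at 48 h, -0.43 (-0.68 to -0.18, adjusted p = 0.141), was the largest of the set at that time, and it passed the threshold when Dox 72 h array 3 was left out of the fit (adjusted p = 0.0292). Tyms, thymidylate synthase, gave 8.20, 8.25 and 8.16 on the control arrays, 8.09, 7.95 and 7.99 after 48 h and 8.05, 8.19 and 8.09 after 72 h, again with the 48 h arrays below all controls and the 72 h arrays overlapping them. Rrm1, the large subunit of the reductase, differed by -0.16 at 72 h and -0.16 at 48 h. Averaged over the 4 genes, the log2 value was 9.17, 9.26 and 9.06 on the control arrays, 8.88, 8.88 and 8.93 after 48 h and 8.93, 8.97 and 8.97 after 72 h, so that no Dox array reached the control range on the deposited values. The array median was lower on Dox 72 h array 3 (3.71) than on control array 3 (3.84). With each array centred on its median, Dox 72 h array 3 lay within the control range, while all 4 genes stayed below control on average at both times.

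**Figure D3:**
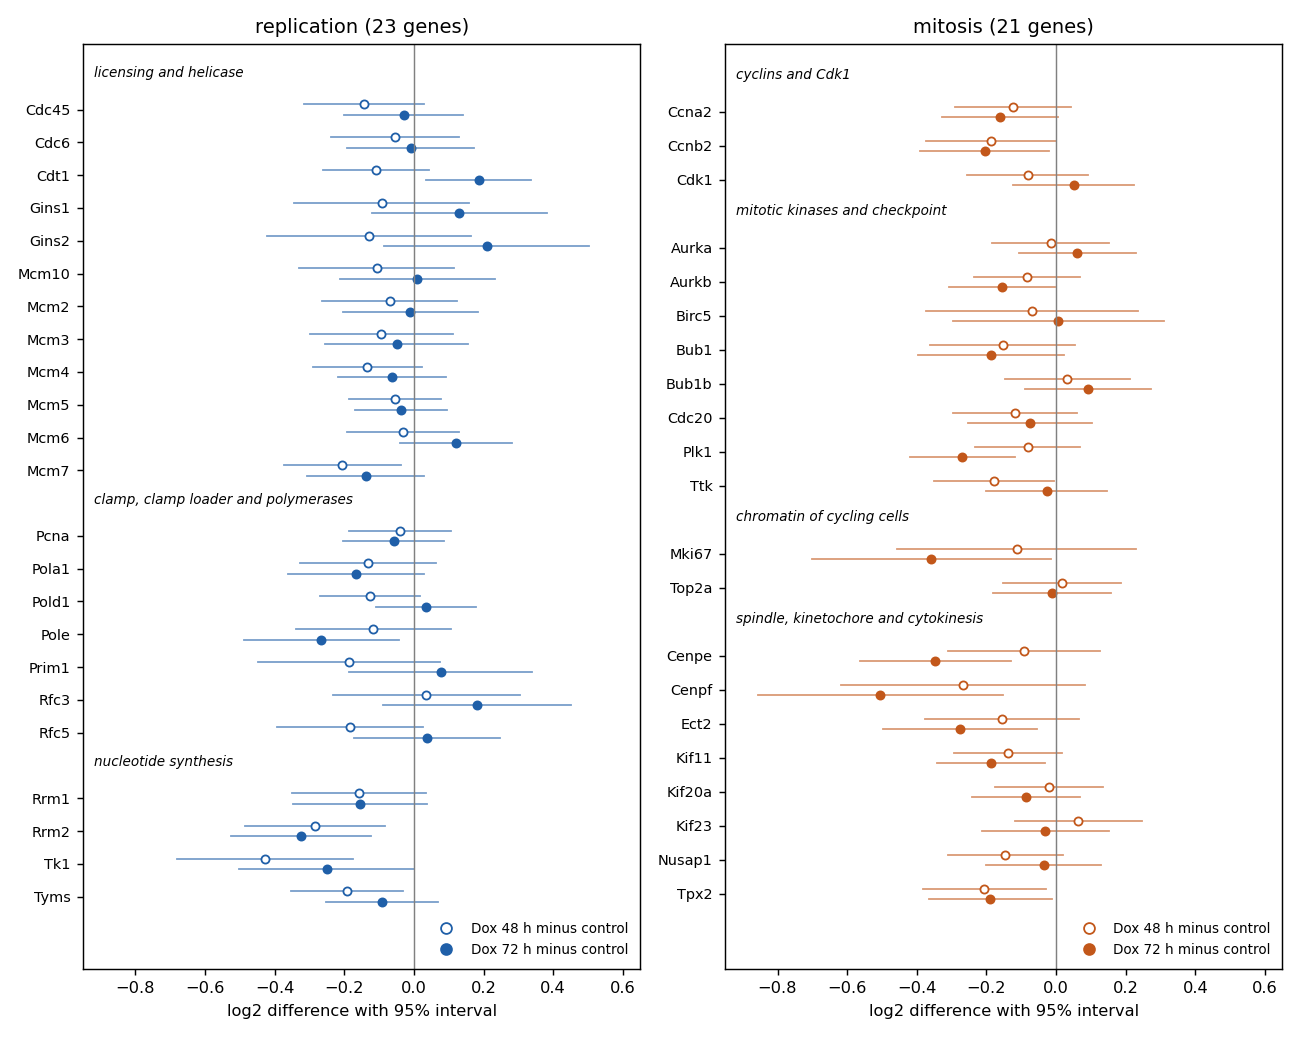
Log2 difference from control of every measured gene at 48 h (open circles) and 72 h (filled circles) with its 95% interval, by role, for replication (left) and mitosis (right). Nucleotide synthesis genes lie left of 0 at both times, and the genes of the spindle, kinetochore and cytokinesis all lie left of 0 at 72 h.

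Among the mitosis genes, those of the spindle, kinetochore and cytokinesis were lowest at 72 h. All 8 were below control on average (5 of 8 on centring), with a median difference of -0.19, and 5 of 8 had an unadjusted p under 0.05, against 26.4% of the brighter genes. Cenpe, the kinetochore motor that brings chromosomes to the spindle equator, gave 8.69, 8.76 and 8.67 on the control arrays, 8.51, 8.61 and 8.72 after 48 h and 8.49, 8.40 and 8.19 after 72 h. Its 72 h arrays were below all others. The difference was -0.35 from control (-0.56 to -0.13, adjusted p = 0.111, limma) and -0.25 from 48 h (-0.47 to -0.04, adjusted p = 0.346). Cenpf, a large kinetochore protein that accumulates in G2 phase, gave 8.12, 8.19 and 7.90 on the control arrays, 7.64, 7.87 and 7.90 after 48 h and 7.85, 7.58 and 7.28 after 72 h. All 6 Dox arrays were below all controls, although Dox 48 h array 3 and control array 3 both round to 7.90, and array 3 of the 72 h group was the lowest. With -0.50 at 72 h (-0.85 to -0.15, adjusted p = 0.145), Cenpf had the largest difference of the set at that time and also one of its widest intervals.

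Tpx2, which activates Aurora A and nucleates spindle microtubules, gave 9.26, 9.41 and 9.36 on the control arrays, 9.08, 9.11 and 9.22 after 48 h and 9.21, 9.20 and 9.06 after 72 h. Every Dox array was below every control at both times, with differences of -0.19 at 72 h and -0.21 at 48 h (adjusted p = 0.268 and 0.382, limma). Ect2, the exchange factor that turns on RhoA for cytokinesis, gave 9.98, 10.17 and 9.94 on the control arrays, 9.88, 9.79 and 9.96 after 48 h and 9.83, 9.83 and 9.61 after 72 h, and its 72 h arrays lay below all controls. Its difference at 72 h was -0.28 (-0.50 to -0.06). Kif11, the motor that separates the spindle poles, gave 9.998, 10.07 and 9.96 on the control arrays, 9.84, 9.87 and 9.90 after 48 h and 9.92, 9.80 and 9.76 after 72 h. Again no Dox array reached the control range, and the difference was -0.19 at 72 h (-0.34 to -0.03). The other 3 genes were nearer to control at 72 h. Kif20a and Kif23, both motors of the central spindle, differed by -0.09 and -0.03, and Nusap1, a microtubule-bundling protein, by -0.04.

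Plk1, the kinase that drives mitotic entry, centrosome maturation and the start of cytokinesis, had the smallest adjusted p of all 44 genes. Its probe set (17482739) gave 9.64, 9.71 and 9.60 on the control arrays, 9.54, 9.54 and 9.63 after 48 h and 9.34, 9.44 and 9.36 after 72 h. The 72 h arrays were below all others, and the 48 h arrays overlapped the controls through array 3. The difference was -0.27 from control (-0.42 to -0.12, adjusted p = 0.0807, limma) and -0.19 from 48 h (-0.34 to -0.04, adjusted p = 0.318). Ttk, a kinase of the spindle checkpoint, followed another course. It gave 8.05, 7.92 and 7.96 on the control arrays, 7.91, 7.71 and 7.77 after 48 h and 7.997, 7.94 and 7.90 after 72 h, with the 48 h arrays below all controls and the 72 h arrays overlapping them. The difference was -0.18 at 48 h (adjusted p = 0.473).

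For the other kinase and checkpoint genes, the differences at 72 h were -0.16 for Aurkb and 0.01 for Birc5 (survivin), both of the chromosomal passenger complex, 0.06 for Aurka, the centrosomal Aurora kinase, -0.19 for Bub1 and 0.09 for Bub1b, both of the checkpoint, and -0.08 for Cdc20, the activator of the anaphase-promoting complex that the checkpoint holds back. Aurkb was the one of these with all 72 h arrays below all controls. Of the 8 kinase and checkpoint genes, 5 were below control at 72 h (3 on centring), so that this group did not share the course of the spindle genes throughout.

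Ccnb2, a B-type cyclin that activates Cdk1 at mitotic entry, gave 10.92, 10.90 and 10.80 on the control arrays, 10.54, 10.76 and 10.76 after 48 h and 10.66, 10.62 and 10.72 after 72 h. No Dox array reached the control range, and the differences were -0.21 at 72 h (-0.39 to -0.02) and -0.19 at 48 h (-0.37 to -0.001). Ccna2, the cyclin of S and G2 phase, differed by -0.16 at 72 h, whereas Cdk1, the kinase both cyclins bind, differed by 0.05. Mki67, the proliferation marker that coats mitotic chromosomes, differed by -0.36 (-0.70 to -0.02) and had all 72 h arrays below all controls, the lowest being array 3. Top2a, the topoisomerase that untangles chromosomes, differed by -0.01 (-0.18 to 0.16).

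**Figure D4:**
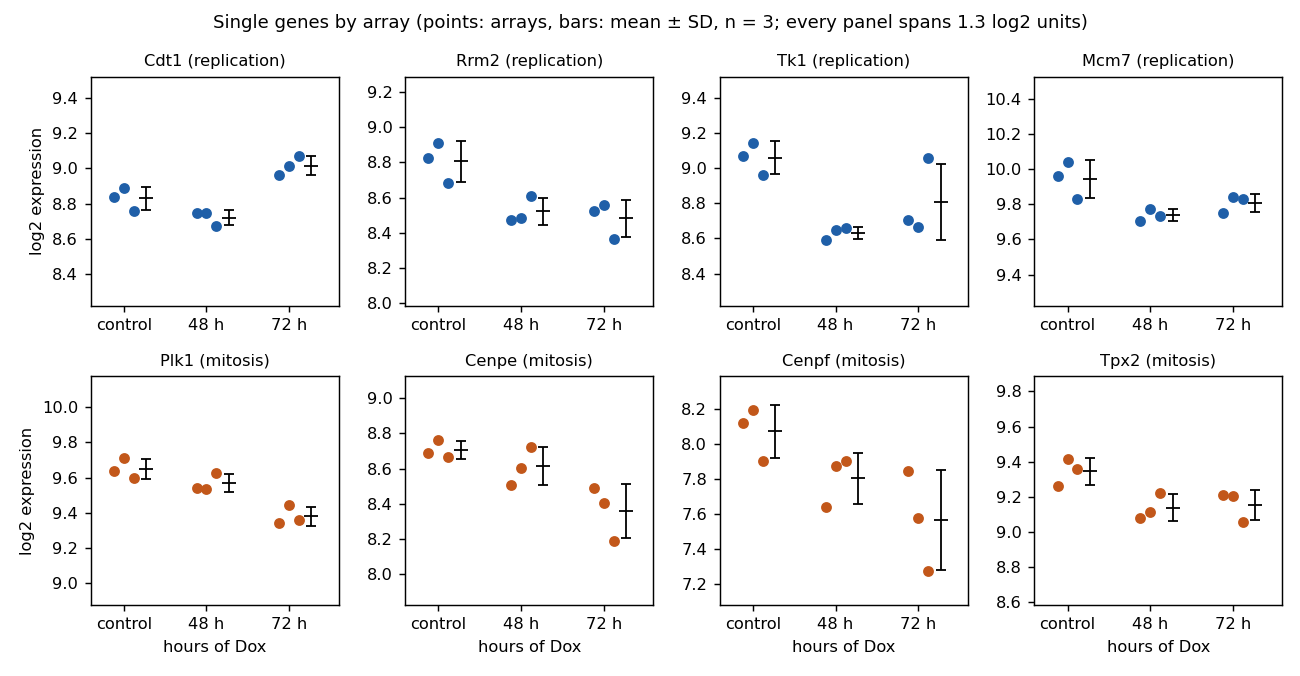
Log2 expression of the 4 replication genes (top, blue) and 4 mitosis genes (bottom, orange) with the smallest F-test p-values of their class, per array, with mean ± SD (n = 3); all panels span the same number of log2 units. Cdt1 is lowest at 48 h and highest at 72 h, Tk1 has 1 array at 72 h at the control level, and Plk1 and Cenpe are lowest at 72 h.

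Genes with an E2F-like motif and genes with a CHR had like medians at 48 h and less alike ones at 72 h. The 11 measured genes with an E2F-like motif had median differences from control of -0.11 at 48 h and 0.03 at 72 h, and the 18 with a CHR had -0.11 and -0.05. Rfc4 and Ccnb1 did not enter these medians, and Mcm7, Rfc3 and Cdk1 had both motifs. In the rest of the brighter genes, 613 with an E2F-like motif had medians of -0.03 at 48 h and -0.02 at 72 h, and 1593 with a CHR had -0.01 and 0.01. The motif alone was thus not accompanied by the same values outside the set.

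Genes of the same pathways that do not belong to the 46 were read beside them. Of 34 other replication genes measured (origin recognition, primase, ligase and fork proteins among them), 31 were below control at 48 h and 17 at 72 h, with medians of -0.13 and 0.004, and the median at 72 h against 48 h was 0.13. Of 38 other mitosis genes, 33 were below control at 48 h and 30 at 72 h, with medians of -0.11 and -0.09. Neither list had a gene past the threshold in any comparison (limma, smallest adjusted p in the F test 0.130 and 0.106). Before adjustment, 7 of the replication genes had a p under 0.05 at 48 h (all lower), 8 at 72 h (5 higher and 3 lower) and 10 between the Dox groups (9 higher at 72 h). The corresponding counts for the mitosis genes were 7 at 48 h (1 higher and 6 lower), 9 at 72 h (1 higher and 8 lower) and 3 between the Dox groups (all higher at 72 h). In the order of the comparisons these were 20.6%, 23.5% and 29.4% of the replication genes and 18.4%, 23.7% and 7.89% of the mitosis genes, which lay near or below the background of 19.7%, 26.4% and 18.7% except for the replication genes between the Dox groups. On the arrays, other replication minus other mitosis genes, relative to controls, was 0.17 and 0.13 on Dox 72 h arrays 2 and 3 and 0.01 on array 1, with -0.003, -0.04 and 0.04 in controls. These are the same arrays, so the second set of genes is no independent sample of the cells.

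By the rule for genes named from these lists, Timeless, which protects the moving fork, gave 7.30, 7.38 and 7.14 on the control arrays, 7.29, 7.23 and 7.29 after 48 h and 7.58, 7.51 and 7.60 after 72 h. Its 72 h arrays were above all others (0.29 against control, adjusted p = 0.103, limma). Dtl, which targets Cdt1 for destruction during S phase, gave 8.99, 9.13 and 8.88 on the control arrays, 8.74, 8.69 and 8.63 after 48 h and 8.67, 8.77 and 8.58 after 72 h, with all Dox arrays below all controls (-0.33 at 72 h, adjusted p = 0.101). Spc24, a subunit of the Ndc80 kinetochore complex, was higher at 72 h by 0.35 (adjusted p = 0.085), opposite in sign to Cenpe and Cenpf, and Kif15, a spindle motor, differed by -0.23 (adjusted p = 0.127). None of the 4 passed the threshold.

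The genes that did pass were brakes on the cell cycle. Of 13 measured, 3 rose at 48 h (limma, adjusted p under 0.05), as did 1.78% of all genes and 386 of the 12658 brighter genes, and 0 fell. The list was mixed at 48 h. On average 4 of the 13 lay below control, down to a difference of -0.36, and 1 of them had an unadjusted p under 0.05. At 72 h 0 passed, and 3 (23.1%) had an unadjusted p under 0.05, which is no more than the background of 26.4%. Cdkn1b, which encodes the Cdk inhibitor p27, gave 7.16, 7.28 and 7.31 on the control arrays, 7.80, 7.83 and 7.83 after 48 h and 7.54, 7.53 and 7.54 after 72 h. Its 48 h arrays were the highest and its 72 h arrays lay between them and the controls (0.57 at 48 h, 0.43 to 0.72, adjusted p = 0.00482, and 0.29 at 72 h, adjusted p = 0.06). Tob1, an antiproliferative protein of the BTG family, gave 5.58, 5.19 and 5.46 on the control arrays, 6.17, 6.09 and 6.29 after 48 h and 5.38, 5.52 and 5.66 after 72 h. It was higher than control at 48 h by 0.77 (0.50 to 1.05, adjusted p = 0.0198), and the 72 h arrays overlapped the controls. Btg2, of the same family, gave 5.52, 5.43 and 6.15 on the control arrays, 7.56, 7.12 and 7.17 after 48 h and 6.29, 7.09 and 7.39 after 72 h, a difference of 1.58 at 48 h (0.89 to 2.27, adjusted p = 0.0462) and 1.22 at 72 h (adjusted p = 0.0828). The count of brakes and other listed genes past the threshold was 1 without control array 2, without control array 3 and without each of the 48 h arrays, and 5 with an intensity trend and robust spread in the fit.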

How the data were processed

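Each sample, RNA from sorted leukemia cells, was read on 1 Affymetrix array (Mouse Gene 2.0 ST). The authors deposited normalized log2 expression values per probe set. The methods of the study name RMA from the oligo package, and the submitters' notes name MAS5, with no version given in the sources used here; the log2 scale and near-equal array medians (3.71 to 3.87) fit RMA. RMA can compress small signals and differences. The platform annotation gave a single symbol for 23521 of the 41345 probe sets.

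Groups were compared with limma 3.58.1 in R 4.3.3 (1 mean per group over all 9 arrays, eBayes, two-sided), with Benjamini-Hochberg adjustment over all probe sets and a threshold of 0.05. The spread after ± is an SD over 3 arrays. The number of arrays limits precision. Scripts were tested on simulated data.

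The genes and lists were chosen with earlier results of these data known. Every gene of the set is accounted for. Values on every array are given for genes past the threshold (none) and, per class, for the 8 with the smallest F-test p. From each further pathway list up to 4 genes past the threshold are named, or else the 2 with the smallest F-test p. Ccnd2 was added as the largest difference of its list at 72 h.

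Alternatives were quantile normalization, median centring, removal of dim probe sets, fits of only the compared groups, mean over probe sets, an intensity trend with robust spread, array weights, the replicate number as a block, each array left out, and, chosen after seeing the data, removal of the trend on gene span. The correlation of deviations between same-numbered arrays ranged from -0.30 to 0.21, so the numbers did not pair the samples. No pair of arrays was identical. Promoter windows and gene spans came from RefSeq (GRCm38.p6).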

Additional observations from a re-analysis of the deposited data

Results flagged for a closer look

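Cdt1, the licensing factor, was picked out because its 48 h arrays all lay below, and its 72 h arrays all above, every control array. Dox 72 h exceeded Dox 48 h by 0.29 on the log2 scale (95% interval 0.14 to 0.45). The test of this difference by limma gave an adjusted p of 0.152, which missed the threshold. The values that picked the gene also gave the interval and the p-value, and they fix the order of the Dox groups, so neither is separate support. No other gene of the 44 had this pattern, and its share over all genes was not counted.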

How the results depend on the processing

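Over 18 alternatives, 0 of the 44 genes passed the threshold in any pairwise comparison except under 2 of them. With an intensity trend and robust spread, 1 gene passed at 72 h against control (Plk1, -0.27, adjusted p = 0.0488, limma). Without Dox 72 h replicate 3, 1 passed at 48 h against control (Tk1, -0.43, adjusted p = 0.0292) and 1 in the F test. Leaving out single arrays thus gave 0 to 1 genes at 48 h, 0 to 1 in the F test, and 0 at 72 h. With the replicate block, 0 passed (smallest adjusted p 0.168). Median centring of the arrays moved the median at 72 h to 0.0613 for replication genes, with a change of sign, and to -0.0647 for mitosis genes. The replication minus mitosis median kept its sign at 72 h against control (0.08 to 0.13 with single arrays left out) and at 72 h against 48 h (0.09 to 0.18), but not at 48 h against control (-0.09 to 0.02). From the further lists, 3 genes passed at 48 h, 5 with an intensity trend and robust spread, 2 with the replicate block and 1 to 3 with single arrays left out (1 without control replicate 2 or 3 or any Dox 48 h replicate). The causes were not tested. Of the differences of single genes over these alternatives, 40 moved by more than the spread between replicates, 13 of them with a change of sign. A further 73 changed sign within that spread, while 2261 stayed within it and kept their sign.

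With 3 arrays per group, the 95% intervals of the 44 genes reached from -0.85 to 0.50 at 72 h, so that differences of the size seen here mostly could not be told from 0. Array signal cannot be compared between genes.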

Other observations

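Regulators of G1 and S phase lie upstream of both classes. Of 21 measured, 14 were below control at 48 h and 14 at 72 h, with median differences of -0.07 and -0.09, and 0 passed the threshold at either time (limma), while 4 had an unadjusted p under 0.05 at 48 h (all lower) and 10 at 72 h (3 higher and 7 lower). These were 19% and 47.6% of the list, against 19.7% and 26.4% of the brighter genes. Tfdp1, the partner with which E2F proteins bind DNA, gave log2 values of 10.66, 10.65 and 10.75 on the control arrays, 10.44, 10.26 and 10.41 after 48 h and 10.40, 10.44 and 10.37 after 72 h. All Dox arrays were below all controls, with differences of -0.28 at 72 h and -0.32 at 48 h (adjusted p = 0.0875 and 0.0841, limma). Cdc25a, the phosphatase that frees Cdk2 for S phase entry, gave 7.67, 7.78 and 7.71 on the control arrays, 7.47, 7.26 and 7.41 after 48 h and 7.37, 7.48 and 7.31 after 72 h. It was likewise below every control on every Dox array, with differences of -0.33 at 72 h and -0.34 at 48 h (adjusted p = 0.0763 and 0.107, limma).

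Genes of replication stress and fork repair had medians of -0.14 at both times, with 11 of 13 below control at 48 h and 9 of 13 at 72 h. None passed the threshold (limma), and 4 had an unadjusted p under 0.05 at 48 h (30.8%, against a background of 19.7%) and 3 at 72 h (23.1%, below the background of 26.4%), all lower. Blm, the helicase that dissolves recombination intermediates, differed by -0.36 at 72 h (95% interval -0.58 to -0.15, adjusted p = 0.0929). Rmi1, its partner, was dim on these arrays, with values between 3.52 and 3.96, and differed by -0.18 at 72 h.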
